A study of Homo sapiens with 12 samples.

Results

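CXCL10 and CXCL11 are chemokines of the CXC family that attract activated T cells, and they are described here in MDA-MB-231 cells given TNFα, the plant flavone apigenin, or both. The pair was chosen by symbol, with earlier results of these data in view, as the probe set that carries that single gene symbol on the array, with the highest mean over the 12 arrays where a gene had several. Each gene had exactly 1 such probe set, 16977052 for CXCL10 and 16977058 for CXCL11, so there was nothing to choose between, and the pair is 2 of 22395 genes with a singly named probe set. The mean over the 12 arrays, the only measured value in the selection, was 2.05 for CXCL10 and 3.07 for CXCL11 on the log2 scale of the deposited values. Because the pair was selected on results already seen, the p-values below describe the size of a difference against the spread between arrays and are not independent support for it.

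MDA-MB-231 is an established human breast cancer line, grown from a pleural effusion, and all 12 samples are of this 1 line. The 4 groups of 3 were untreated controls, a TNFα group (40 ng/ml), an apigenin group (40 µM) and a group that received TNFα (40 ng/ml) together with apigenin (40 µM), all harvested after 24 h. The labels have the treatments prepared in HBSS, a buffered salt solution, and the sources used here do not say whether the controls received that solution or a solvent. Total RNA from each sample was hybridised to 1 Affymetrix whole-transcript array. The labels number the samples of a group without saying that they came from separate cultures, and the p-values therefore reflect the spread among these particular samples, which may be technical.

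CXCL10 and CXCL11, with their relative CXCL9, bind the receptor CXCR3 on activated T cells and natural killer cells and draw these cells along a gradient. Their genes are best known for their response to interferon-γ through STAT and IRF factors, and they also carry binding sites for NF-κB, which TNFα activates by releasing it from its inhibitors. Tumour cells themselves can make these chemokines, and apigenin is a flavone known to lower NF-κB activity in many cell types.

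The sequences just before the start sites are shown because the results turn on a pair of neighbouring genes that moved together under a factor that acts through NF-κB. They are the 250 bases before each RefSeq start on GRCh38.p14, both on the minus strand, at chr4:76023498-76023747 for CXCL10 and chr4:76036071-76036320 for CXCL11. They are written 5′ to 3′ on the gene's strand, with capitals marking NF-κB-like matches (GGNNNTTCC on either strand) and interferon-response-like matches (GAAANNGAA on either strand).
CXCL10: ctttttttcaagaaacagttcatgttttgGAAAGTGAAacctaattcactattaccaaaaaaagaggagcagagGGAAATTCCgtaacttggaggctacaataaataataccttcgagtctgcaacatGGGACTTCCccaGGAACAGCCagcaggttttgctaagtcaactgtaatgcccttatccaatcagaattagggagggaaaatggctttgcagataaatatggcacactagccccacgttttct
CXCL11: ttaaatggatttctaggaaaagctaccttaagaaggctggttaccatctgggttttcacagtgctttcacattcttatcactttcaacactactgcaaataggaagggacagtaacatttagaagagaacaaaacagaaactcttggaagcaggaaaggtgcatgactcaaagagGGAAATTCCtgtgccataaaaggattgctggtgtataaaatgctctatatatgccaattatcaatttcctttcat

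Motifs were searched on both strands in windows that also held 50 bases after the start, 300 bases in all. The CXCL10 window held 3 places that match the NF-κB-like letters, at 176 to 168, 122 to 114 and 110 to 102 bases before the start, the last of them on the opposite strand. The CXCL11 window held 1, at 75 to 67 bases before the start. The first CXCL10 place and the CXCL11 place have the same letters, GGAAATTCC, which read as a match on both strands, and they lie in the longest run the 2 windows share, AGAGGGAAATTCC, 13 bases long. Of 27305 promoter windows of the same length, 20.1% held at least 1 NF-κB-like match and 2.51% held 2 or more. An interferon-response-like match was present in CXCL10 at 221 to 213 bases before the start and in 8.29% of all windows. The CXCL11 window had no match to those letters. It held 2 matches to the STAT-like letters TTCNNNGAA, at 240 to 232 bases before and 19 to 27 bases after the start, a motif found in 7.88% of windows, and 1 match to TATAAA, at 42 to 37 bases before the start, found in 12% of windows. CXCL10 had neither. None of these matches overlapped a match of another motif. A match describes letters in the window and is neither a measured site nor a cause, and no binding was measured in this study.

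CXCL10 was read at 1.79, 1.26 and 1.66 on the control arrays and at 2.74, 3.19 and 3.72 on the TNFα arrays, as log2 expression values. It was read at 1.63, 1.54 and 1.59 on the apigenin arrays and at 1.61, 1.95 and 1.89 on the arrays of cells given both. The TNFα arrays stood apart from every other array, and the other 3 groups lay over one another. Outside the TNFα group CXCL10 was close to the bottom of the scale. The lower limit used here is the 25th percentile of an array, which lay between 1.597 and 1.645, and CXCL10 reached it on 3 of 3 TNFα arrays but on only 4 of the other 9. Among the named probe sets of an array it stood between percentiles 2.31 and 20.8 in controls and between 52.9 and 64.5 with TNFα. It passed the filter, which asks for 3 arrays, on 7 of 12 arrays, and the TNFα arrays alone would have carried it.

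CXCL11 was read at 3.06, 2.82 and 2.54 on the control arrays and at 4.50, 4.36 and 4.37 on the TNFα arrays. It was read at 2.22, 2.54 and 2.70 with apigenin and at 2.56, 2.47 and 2.70 with both. Again the 3 TNFα arrays were above all 9 others, while the remaining groups overlapped. CXCL11 was above the lower limit on all 12 arrays, and its untreated level was near the middle of the named probe sets, between percentiles 48.3 and 59.2. With TNFα it reached percentiles 70.8 to 73.

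**Figure D1:**
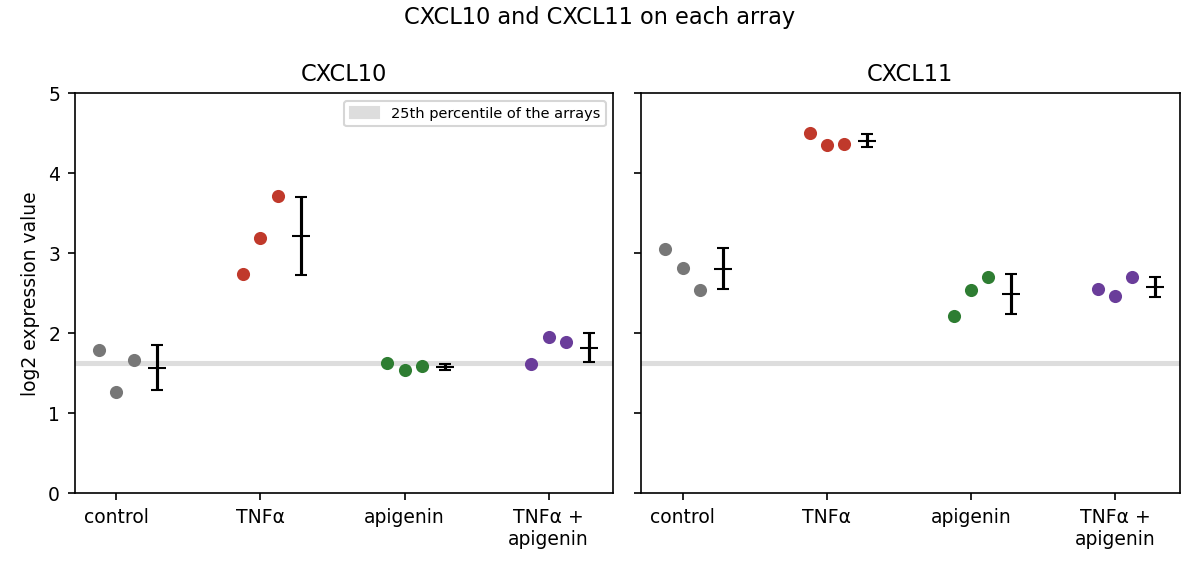
Log2 expression value of CXCL10 (left) and CXCL11 (right) on each of the 12 arrays, 1 point per array, with the group mean and SD (n = 3) as a bar at the right of each group and the range of the arrays' 25th percentiles as a grey band. The 3 TNFα arrays are above every other array for both genes, and CXCL10 in the other groups lies around the grey band.

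By group mean, CXCL10 was ordered control 1.57 ± 0.28 (SD, n = 3), apigenin 1.58 ± 0.04, both agents 1.82 ± 0.18 and TNFα 3.22 ± 0.49. For CXCL11 the order was apigenin 2.49 ± 0.25, both agents 2.58 ± 0.12, control 2.81 ± 0.26 and TNFα 4.41 ± 0.08. In each gene only the step up to the TNFα group passed the test given below, and no neighbours among the lower 3 groups did, although CXCL10 was 0.23 higher with both agents than with apigenin, more than the SD of either group. The spread within the TNFα group was wide for CXCL10 and narrow for CXCL11. In bulk RNA, fewer expressing cells and less RNA per expressing cell cannot be told apart.

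TNFα alone raised both chemokines about 3-fold. CXCL10 rose by 1.65 on the log2 scale (SE 0.21, 95% interval 1.20 to 2.10, limma adjusted p = 0.00117), which is 3.13-fold, and CXCL11 rose by 1.60 (SE 0.15, interval 1.27 to 1.93, adjusted p = 9.4e-05), which is 3.03-fold. The groups did not overlap for either gene. Calls here and below are at a Benjamini-Hochberg adjusted p under 0.05 over the 20572 genes tested, and 0.997% of them were called in this comparison, 0.778% higher and 0.219% lower. Ranked by size, CXCL10 was number 23 and CXCL11 number 26 among the increases. Since CXCL10 started near the bottom of the scale, its fold may understate the change in RNA, which was not tested. Under quantile normalisation the calls among all genes shifted from 160 higher and 45 lower to 181 higher and 123 lower, and both chemokines were still called higher.

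Apigenin alone gave no call for either chemokine. The CXCL10 difference from control was 0.01 (SE 0.21, interval -0.44 to 0.46, adjusted p = 0.984) and changed sign when control replicate 2 or apigenin replicate 1 was left out. For CXCL11 it was -0.32 (SE 0.15, interval -0.65 to 0.01, adjusted p = 0.238). These intervals leave room for a modest fall of CXCL11, and CXCL10 had little room to fall from its untreated level. Of all genes, 11.4% were called in this comparison, 4.55% higher and 6.83% lower.

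In cells given TNFα, apigenin lowered both chemokines to values that overlapped those of untreated cells. CXCL10 fell by 1.40 (SE 0.21, interval -1.85 to -0.95, adjusted p = 9.3e-04), a 2.64-fold lower value, and CXCL11 fell by 1.83 (SE 0.15, interval -2.16 to -1.50, adjusted p = 1.3e-05), a 3.55-fold lower value. In both genes the 3 arrays of cells given both agents lay below the 3 TNFα arrays. This comparison shares the TNFα arrays with that of TNFα against control, so a high TNFα array enters both. Of all genes 10.1% were called, 4.21% higher and 5.92% lower, and by size CXCL11 was number 15 and CXCL10 number 60 among the decreases.

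With apigenin present, no TNFα response of either chemokine was detected. The difference between cells given both agents and cells given apigenin alone was 0.23 for CXCL10 (SE 0.21, interval -0.22 to 0.68, adjusted p = 0.888). For CXCL11 it was 0.09 (SE 0.15, interval -0.24 to 0.42, adjusted p = 0.961), and leaving out apigenin replicate 1 turned its sign. The upper ends of both intervals are below the lower ends found for TNFα without apigenin. Few genes passed here, 0.209% of those tested, and all 43 were higher (0.209%). None was lower (0%) in the limma fit, in which 1489 genes had an unadjusted p under 0.05 in either direction.

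Cells given both agents did not differ detectably from untreated cells in either chemokine. CXCL10 differed by 0.25 (SE 0.21, interval -0.20 to 0.70, adjusted p = 0.558) and CXCL11 by -0.23 (SE 0.15, interval -0.56 to 0.10, adjusted p = 0.42). Meanwhile 12.5% of all genes were called between these groups, 7.15% higher and 5.37% lower. Under quantile normalisation that split turned from 57.1% higher to 38.8% higher, with no call for either chemokine.

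The interaction asks how far apigenin changed the TNFα response: it is the response in apigenin-treated cells minus that in cells without apigenin. It was -1.51 for CXCL11 (SE 0.22, interval -1.97 to -1.04, adjusted p = 0.0342) and -1.41 for CXCL10 (SE 0.30, interval -2.05 to -0.78, adjusted p = 0.313). CXCL11 was called and CXCL10 was not, although the sizes were close. Of all genes 0.0535% were called, 0.00972% higher and 0.0437% lower. By p-value CXCL11 was number 4 and CXCL10 number 21. The CXCL11 call was lost in 10 of 12 fits that left out 1 array, where the difference ranged from -1.64 to -1.38 and the adjusted p from 0.0274 to 0.159. It was kept only without control replicate 1 or without apigenin replicate 1, and a mean-variance trend in the fit gave an adjusted p of 0.0551.

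**Figure D2:**
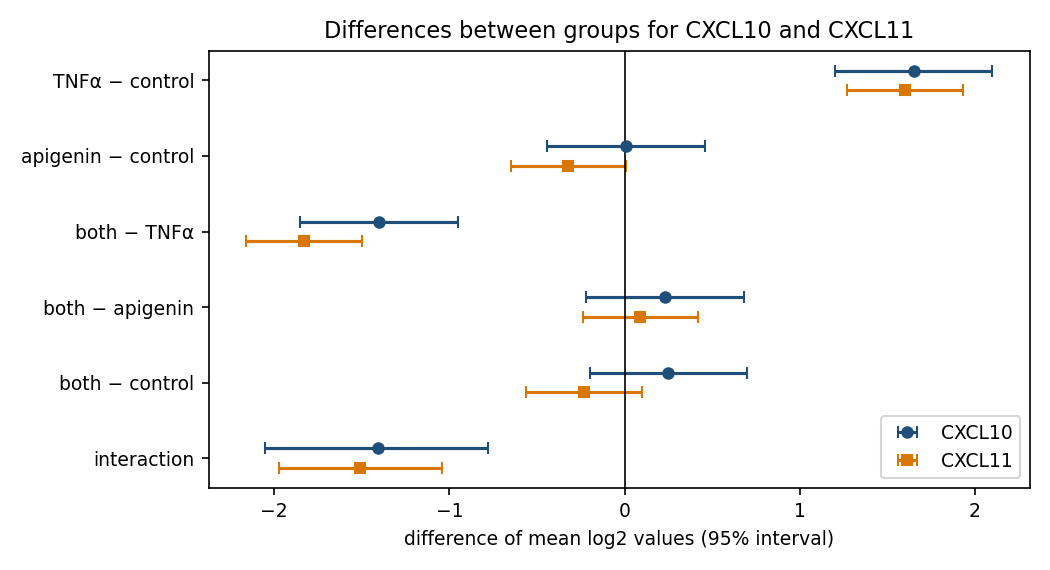
Difference of mean log2 values with its 95% interval from limma for CXCL10 (circles) and CXCL11 (squares) in each of the 6 comparisons; "both" stands for TNFα with apigenin. The intervals for TNFα against control, both against TNFα and the interaction lie away from 0, and the other 3 comparisons span or touch 0.

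The sizes of the changes in the 2 genes were then compared on each array as the CXCL10 value minus the CXCL11 value. The TNFα increase of CXCL10 exceeded that of CXCL11 by 0.05 (SE 0.30, interval -0.65 to 0.74; two-sided exact permutation p = 0.9, with 0.1 the smallest that 20 arrangements allow). Leaving out single arrays moved this between -0.22 and 0.33. For apigenin in TNFα-treated cells the fall of CXCL10 was smaller by 0.43 (SE 0.30, interval -0.27 to 1.13; exact permutation p = 0.3). No difference between the 2 genes was detectable, and the intervals do not show that they changed alike. CXCL10 reached the lower limit on 2 of 3 control arrays and 0 of 3 apigenin arrays, so its changes may be understated. CXCL11 was above the limit throughout. That limit is a filter setting and not a detection limit. How far low signal compresses either gene, with CXCL11 at 2.22 to 3.06 outside the TNFα group, was not tested.

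The 2 genes moved together between groups and not within them. Pearson's r between them was 0.891 over the 12 arrays, -0.072 over the 9 arrays without TNFα and -0.107 over the deviations of the 12 arrays from their group means. These are descriptions, with no p, since most of the first value is the step to the TNFα group. The TNFα array numbered 3 gave the highest CXCL10 reading, 3.72, and array 1 the lowest of its group, 2.74, while CXCL11 was 4.37 and 4.50 on the same arrays. IL6 on those arrays was 5.54 and 3.97, and CCL2, the monocyte-attracting chemokine, 3.19 and 2.62. What sets the CXCL10 spread within the TNFα group was not tested.

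Of the CXCR3 axis, a list of 8 genes that were all measured, CXCL10 and CXCL11 were the only 2 called in either direction with TNFα alone, and the same 2 were the only ones called when apigenin was added to TNFα. Of all genes 0.997% were called with TNFα alone and 10.1% when apigenin was added to TNFα. With such shares, a lack of calls among the few other genes says little about the axis. The list's median difference was 0.21 and -0.06 in these comparisons, beside 0.02 and -0.01 over all genes. The list includes the chosen pair. Without the pair, the values with TNFα given below lay between -0.24 and 0.28 and were of either sign. CXCL9, the third CXCR3 ligand, was read between 1.36 and 1.97 over the 12 arrays. Its difference was -0.15 (SE 0.15, adjusted p = 0.809) with TNFα and 0.04 (SE 0.15, adjusted p = 0.943) when apigenin was added to TNFα. Both CXCL9 values changed sign when single arrays were left out. The receptor CXCR3 differed by -0.15 with TNFα (SE 0.14), and the scavenger receptor ACKR3, which also binds CXCL11, by -0.24 (SE 0.16). DPP4, the protease that trims these chemokines, differed by 0.17 (SE 0.27), and the platelet chemokines PF4 and PF4V1 by 0.28 (SE 0.19) and 0.25 (SE 0.17). None of these 6 passed. With apigenin added to TNFα the same 6 genes lay between -0.26 for DPP4 and 0.16 for ACKR3.

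CXCL9, CXCL10 and CXCL11 lie close to one another on chromosome 4, and the genes around them were not called with TNFα. Of all genes 0.997% were called with TNFα, so a lack of calls among so few genes says little about the locus. In RefSeq order the protein-coding genes there are PPEF2, NAAA, SDAD1, CXCL9, ART3, CXCL10, CXCL11, NUP54 and SCARB2. PPEF2, CXCL9 and ART3 had group means between 1.46 and 2.02, near the lower limit, and had little room to fall. ART3 overlaps both chemokine genes in the annotation, and whether their probe sets share that stretch was not checked. Its values, -0.08 with TNFα (SE 0.22, adjusted p = 0.946) and 0.36 when apigenin was added to TNFα (SE 0.22, adjusted p = 0.395), did not pass. Only SDAD1 among the neighbours was called, and with apigenin, not TNFα. It was 0.49 higher with apigenin alone (limma adjusted p = 0.0153), where 4.55% of all genes were higher. When apigenin was added to TNFα it was 0.57 higher (limma adjusted p = 0.00743), where 4.21% of all genes were higher. Both chemokines were lower in that comparison.

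**Figure D3:**
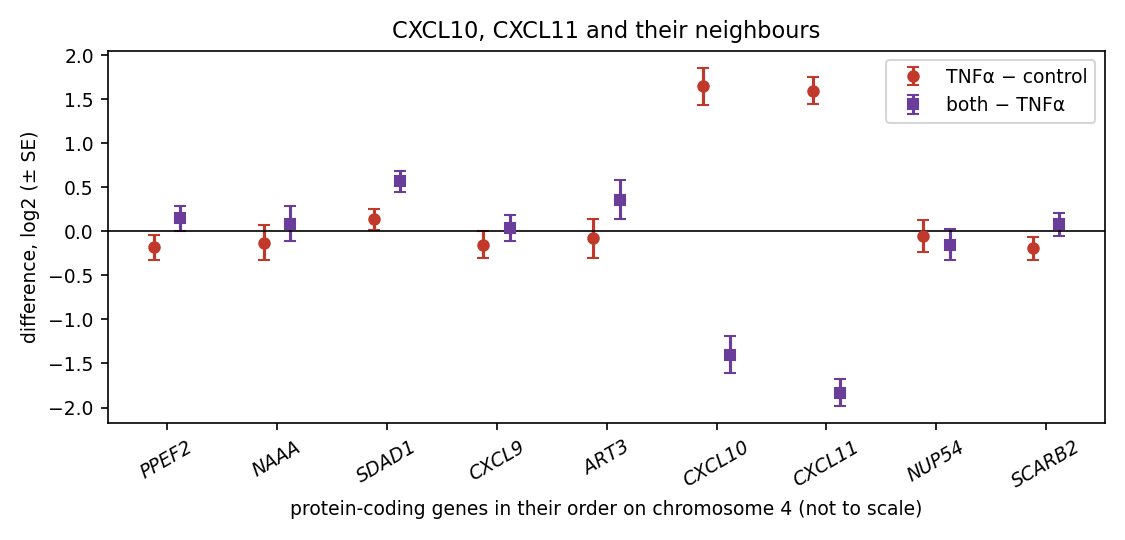
Difference of mean log2 values ± SE for CXCL10, CXCL11 and the 7 protein-coding genes around them in RefSeq order on chromosome 4, for TNFα against control (circles) and both agents against TNFα (squares). The 2 chemokines stand at 1.65 and 1.60 and at -1.40 and -1.83, and the neighbours stay between -0.19 and 0.57.

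NF-κB is the main route of TNFα signalling. Of 24 tested genes of the NF-κB and TNF receptor list, 12 rose with TNFα and none fell, with a median difference of 0.66. Over all genes 0.778% were higher and 0.219% lower, with a median of 0.02. The 12 included TNFAIP3 (3.12, adjusted p = 6.1e-08) and TNIP1 (1.87, adjusted p = 1.5e-06), which damp the pathway. Also among them were NFKBIA (1.69, adjusted p = 3.0e-05), which holds NF-κB in the cytoplasm, and the kinase IKBKE (2.17, adjusted p = 0.00116). Apigenin alone raised 3 of the 24 and lowered 2, with a median of 0.08. Of all genes 4.55% were higher and 6.83% lower with apigenin alone. IKBKE was at 3.16 ± 0.72 with apigenin alone and 4.40 ± 0.33 in controls (SD, n = 3), a fall that was called. When apigenin was added to TNFα, 4 of the 24 fell and none rose, with a median of -0.08. They were IKBKE by 2.29, TNFAIP3 by 0.78, TNIP1 by 0.66 and BCL3 by 0.61. Of all genes 5.92% were lower and 4.21% higher there. The BCL3 call was lost in 4 of 15 alternative settings of the processing, among which are fits without 1 array. In cells given apigenin, TNFα still raised 7 of the 24, with a median of 0.47, among them TNFAIP3 (2.54, adjusted p = 2.7e-06), NFKBIE (2.01) and TNIP1 (1.62). Of all genes 0.209% were higher there. CXCL10 and CXCL11 were not among the genes that TNFα raised in the presence of apigenin.

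This was compared over all genes that TNFα raised. Of 160 genes called higher with TNFα alone, 30 were also called higher with TNFα in the presence of apigenin. Their median response was 0.90 without and 0.44 with apigenin, and the median gene kept 51.1% of its log2 response. CXCL11 kept 5.59%, and 14 of the 160 genes, CXCL11 included, kept no more than that. CXCL10 went from 1.65 to 0.23 and CCL2 from 1.13 to 0.02, and no share is given for CXCL10, which was below the lower limit on every apigenin array. CXCL8, the neutrophil attractant, kept 52.1% (4.36 to 2.27), TNFAIP3 81.4% and CXCL1 85.7% (1.27 to 1.09). Apigenin alone raised CXCL8 by 0.88 (limma adjusted p = 0.00949), so its response with apigenin starts from a higher level. The 160 genes were picked on their response without apigenin, which favours high values of it, and the shares were not tested.

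**Figure D4:**
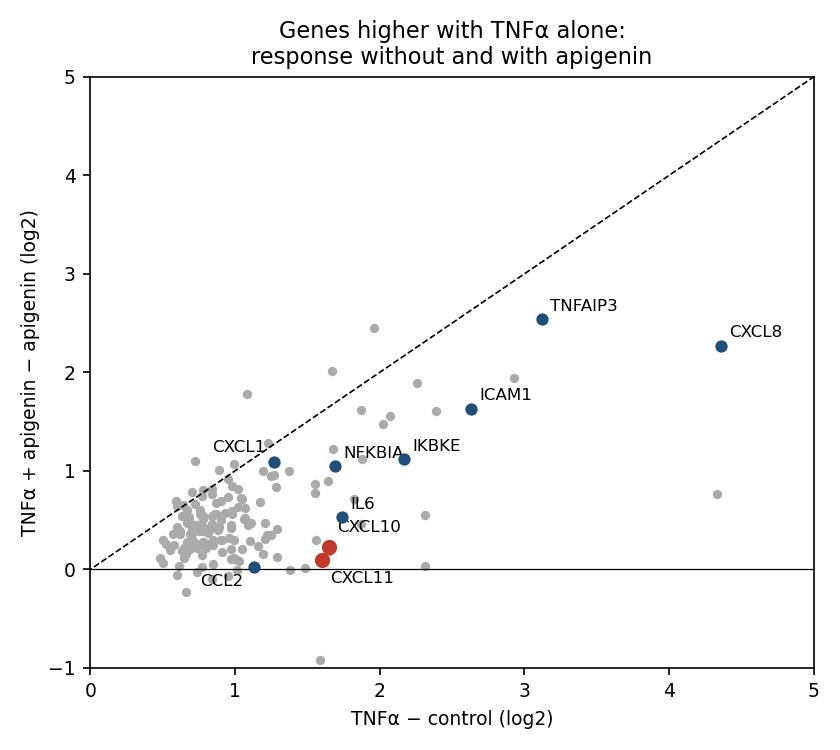
TNFα response of the 160 genes called higher with TNFα alone, without apigenin on the x axis and with apigenin on the y axis, as differences of mean log2 values; the dashed line marks equal responses. CXCL10 (1.65 and 0.23) and CXCL11 (1.60 and 0.09) lie near 0 on the y axis, while TNFAIP3 (3.12 and 2.54) lies close to the line.

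Interferon-γ is the classical inducer of both chemokines, and a list of genes it induces, which holds both, was read as well. Of 33 tested interferon-γ-induced genes, 4 rose with TNFα, which were the 2 chemokines, ICAM1 (2.63, adjusted p = 1.2e-07), an adhesion molecule for leukocytes, and CD274 (0.63, adjusted p = 0.0403), which encodes PD-L1 and lost its call in 7 of 15 settings. Without the chemokines that is 2 of 31, where 0.778% of all genes were higher. The median of the list with the chemokines was 0.20, beside 0.02 over all genes. The interferon-γ gene IFNG itself was read between 1.25 and 1.62 and did not pass the filter. IRF1, the factor through which interferon-γ often acts, was read between 3.55 and 4.31 over the 12 arrays and belongs to a list of 14 interferon regulatory factors and partners in which none was called with TNFα (median 0.08).

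When apigenin was added to TNFα, 8 of the 33 interferon-γ-induced genes fell and 1 rose. Those that fell included both chemokines and GBP4 (-1.17, adjusted p = 0.0365, lost in 5 of 15 settings). Without the chemokines 6 of 31 fell, where 5.92% of all genes were lower and 4.21% higher. The 1 that rose was CD274 (1.06, adjusted p = 2.8e-04), opposite to the chemokines. The median of the list was -0.16. Apigenin alone lowered 4 of the 33, led by PDCD1LG2 (-1.12, adjusted p = 0.00458), and raised 2, with CD274 at 1.15 (adjusted p = 1.2e-04), where 6.83% of all genes were lower and 4.55% higher. TNFα in the presence of apigenin raised ICAM1 (1.63), called in all 15 settings, and GBP1 (1.07) and APOL6 (0.90), which lost their calls in 8 and 9 of 15.

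Genes induced by interferon-β or virus, a list of 36, were called in 2 cases with TNFα, TNFSF10 upwards (0.88, adjusted p = 0.00253) and SAMD9 downwards (-0.62, adjusted p = 0.0318). SAMD9 lost its call in 8 of 15 settings, and the count of called genes ranged from 0 to 5. Of all genes 0.778% were higher and 0.219% lower with TNFα. Apigenin alone lowered 11 of the 36 and raised 1, with a median of -0.36, where 6.83% of all genes were lower and 4.55% higher. TLR3, a sensor of double-stranded RNA, fell by 2.05, SAMD9L by 1.89, RIGI, a sensor of viral RNA, by 1.42 and IFIT3 by 1.40. When apigenin was added to TNFα, 9 of the 36 fell and 3 rose (median -0.39), where 5.92% of all genes were lower and 4.21% higher. TNFSF10, which encodes the death ligand TRAIL, was at -1.78 and TLR3 at -1.45.

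Among interferon regulatory factors and partners, apigenin alone lowered 3 of 14, NMI by 1.07, IFI16 by 0.72 and IRF9 by 0.56. Of all genes 6.83% were lower in that comparison. When added to TNFα, apigenin lowered 2 of the 14, NMI by 0.83 and IFI16 by 0.51, where 5.92% of all genes were lower. The IRF9 call and the latter IFI16 call were each lost in 4 of 15 settings. Of 17 tested interferon ligands, receptors and JAK-STAT genes, 1 rose with TNFα, STAT3 (0.60, adjusted p = 0.0498, lost in 7 of 15 settings). Of all genes 0.778% were higher with TNFα. With apigenin alone 1 of the 17 fell, the receptor subunit IFNAR1 (-0.71), a share like the 6.83% of all genes lower there. When apigenin was added to TNFα 1 fell, the phosphatase PTPN2 (-0.60, lost in 4 of 15 settings), a share like the 5.92% of all genes that were lower there.

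Transcripts of CXCL10 and many other chemokines can be held short-lived through AU-rich elements. Of 13 tested genes that act on such transcripts, none was called with TNFα, where 0.778% of all genes were higher and 0.219% lower. The median of the list was 0.27, beside 0.02 over all genes. The destabiliser ZFP36 rose with apigenin by 1.53 in untreated cells (adjusted p = 6.6e-04) and by 1.54 in TNFα-treated cells (adjusted p = 7.2e-04), and its relative ZFP36L1 by 0.76 and 0.63, the second lost in 5 of 15 settings. HNRNPD fell by 0.83 and 1.07. In all, 3 rose and 2 fell with apigenin alone, and 2 rose and 2 fell when it was added to TNFα. Of all genes 4.55% were higher and 6.83% lower with apigenin alone, and 4.21% higher and 5.92% lower when it was added to TNFα. In the list of p38, JNK and AP-1 genes, TNFα raised 2 of 18, JUNB (0.91) and CEBPB (0.77), where 0.778% of all genes were higher. Apigenin alone raised 6 of the 18 and lowered 1, led by JUNB (1.93, adjusted p = 1.1e-06). Whether any of these genes bears on the chemokines was not tested.

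Among the other chemokines, TNFα alone raised 2 of 13 tested CXC and CX3C genes, CXCL8 by 4.36 and CXCL1 by 1.27. It also raised 1 of 13 CC genes, CCL2 by 1.13, where 0.778% of all genes were higher. When apigenin was added to TNFα, CCL2 fell by 1.17, CXCL8 by 1.21 and CXCL16 by 0.73, and CXCL14 rose by 0.63, with the CXCL16 and CXCL14 calls lost in 4 and 5 of 15 settings. In cells given apigenin, TNFα raised CXCL8 (2.27, adjusted p = 5.1e-05). CXCL1 was 1.09 higher there (interval 0.63 to 1.55, adjusted p = 0.0719), close to its 1.27 without apigenin, but was not called.

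The genes whose values followed each chemokine most closely over the 12 arrays were taken from tested protein-coding genes whose group means span at least 1 on the log2 scale. For CXCL10 the 6 highest Pearson's r were those of TNIP3 (0.966), MMP9 (0.955), CLDN1 (0.951), CCL2 (0.95), IL6 (0.949) and CTSS (0.943). For CXCL11 they were IL1A (0.955), C3 (0.952), STAP2 (0.944), ASS1 (0.939), IKBKE (0.926) and IL24 (0.925). The 2 sets share no gene. The arrays share their treatment, so the step to the TNFα group alone gives a high r. Within groups, the r of CXCL10 with its 6 genes ran from 0.412 (CTSS) to 0.845 (CLDN1), and that of CXCL11 with its own from -0.0921 (IL24) to 0.441 (IKBKE). The genes were picked by r over these same 12 arrays, so deviations within groups entered the choice. CXCL10 also had the wider spread within the TNFα group (SD 0.49, against 0.08 for CXCL11). These values are descriptions without a p. Like the chemokines, CCL2 and C3 had group means near the control with both agents, at 1.73 ± 0.16 against 1.77 ± 0.05 and at 2.53 ± 0.08 against 2.37 ± 0.16 (SD, n = 3). IL24 was at 2.79 ± 0.12 with apigenin against 3.85 ± 0.23 in controls, and its arrays in these groups did not overlap.

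**Figure D5:**
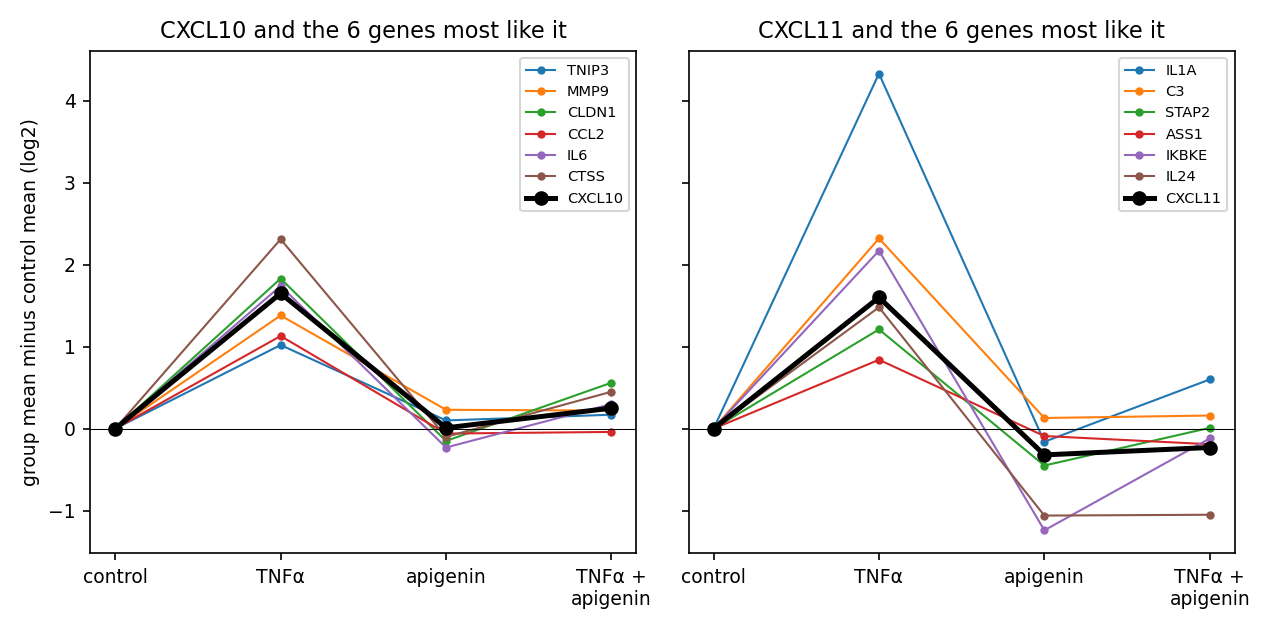
Group mean minus control mean (log2) for CXCL10 (left, black) and CXCL11 (right, black) and the 6 genes with the highest Pearson's r with each over the 12 arrays. Each gene peaks with TNFα alone, by 0.84 for ASS1 to 4.33 for IL1A. With apigenin the mean of STAP2 was 4.34 against 4.79 in controls, and the CXCL11 difference from control was -0.32 (not called).

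The arrays carried the markers of the labelled line: the mean of 7 mesenchymal-like breast cancer genes was 7.76 to 8.31 per array, and the mean of 8 luminal and receptor genes was 3.05 to 3.57. Of those 8, ESR1, PGR and CDH1 were read at 2.44 or less, while EPCAM and KRT19 were read at 4.38 or more. The mean of 11 T and natural killer cell genes lay between 1.93 and 2.11, of 9 monocyte and macrophage genes between 2.79 and 3.01, and of 6 fibroblast genes between 1.82 and 1.96. For 4 leukocyte genes it lay between 2.73 and 3.07: PTPRC and CD53 were read at 1.79 or less, and CORO1A and LCP1 at 3.30 or more. Of the 5 lists of other cell types, only that of endothelium had its TNFα arrays above all others, as the chemokines did: the mean of its 4 measured genes was 2.80 to 2.81 with TNFα and 2.18 to 2.63 elsewhere. The move came from KDR, a VEGF receptor (4.90 to 5.52 with TNFα, 3.29 to 3.85 with both). KDR was 1.05 higher with TNFα than in controls, which was not called (limma adjusted p = 0.104). It was 1.63 lower when apigenin was added to TNFα (adjusted p = 0.002). VWF and TEK were read at 2.07 or less on every array. The median of the 4 gene levels was 2.11 to 2.16 by group, so the mean of CDH5, the remaining gene, lay above theirs. CDH5 differed by -0.02 with TNFα (SE 0.13, limma adjusted p = 0.979) and was not called. Any part of these genes in the chemokine result was not tested. Arrays of the same group correlated at 0.983 to 0.991 and arrays of different groups at 0.966 to 0.990 over the genes tested.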

How the data were processed

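The authors deposited a log2 value for each probe set; the submitters' processing notes name Affymetrix Expression Console, and its version and summary algorithm are not given in the sources at hand. Values ran from 0.536 to 12.495, and array medians from 2.091 to 2.159. Of 53617 probe sets, 23871 carried 1 gene symbol, 1842 several and 27904 none here. Probe sets at or above the 25th percentile of their array on 3 or more arrays were kept, and a gene was read from the kept probe set with the highest mean, which left 20572 genes.

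A model of 4 group means (8 residual and 5.5 prior degrees of freedom) was fitted with limma 3.58.1 in R 4.3.3, with Benjamini-Hochberg adjustment over all genes tested. The pair, the gene lists and the tests were chosen with earlier results of these data known. Named were both chemokines, the CXCR3 axis, up to 4 called genes with the largest difference per list and comparison, and the 6 genes most like each chemokine; IRF1, IFNG, IL6 and CCL2 array values, the marker genes and the genome neighbours were named beyond that rule. Alternatives changed the normalisation, filter, variance trend, probe set rule, samples in the fit and replicate block, and left out single arrays. The procedure was tested on simulated data. Promoter sequences are RefSeq's on GRCh38.p14, found for both genes; the files name no build, so no other coordinates are given.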

Additional observations from a re-analysis of the deposited data

Results flagged for a closer look

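Among the chemokines and the listed genes, 3 had a TNFα response that differed between cells with and without apigenin by the interaction test in limma. For CXCL11 the response with apigenin minus that without it was -1.51 on the log2 scale (SE 0.22, adjusted p = 0.0342), a call lost in 12 of 20 alternative settings. For CXCL8, which apigenin alone raised by 0.88, the difference was -2.09 (adjusted p = 0.0218), and the call was lost in 10 of 20 settings. SAMD9L differed the other way, by 1.37 (adjusted p = 0.0489), a gene that apigenin alone lowered by 1.89, and its call was lost in 16 of 20 settings, each fit without 1 array among them. Dixon's outlier test was not applied, since each group holds 3 arrays.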

How the results depend on the processing

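CXCL10 and CXCL11 kept direction and call under every alternative run for TNFα against control (1.39 to 1.88 and 1.47 to 1.72) and for both agents against TNFα (-1.64 to -1.15 and -1.91 to -1.78). The CXCL11 interaction lost its call with a variance trend (-1.51), without all arrays numbered 3 (-1.35, an alternative chosen after seeing the data) and in 10 of 12 fits without 1 array (-1.64 to -1.38). Without single arrays the uncalled values changed sign for CXCL10 with apigenin (-0.14 to 0.12, with -0.14 without control replicate 2 and -0.01 without apigenin replicate 1), for CXCL11 with TNFα beside apigenin (-0.04 to 0.20), for the CXCL10 minus CXCL11 increase (-0.22 to 0.33, with -0.11 without control replicate 2), for CXCL9 with TNFα (-0.24 to 0.02, the latter without control replicate 1) and for CXCL9 with apigenin added to TNFα (-0.01 to 0.13, the former without TNFα replicate 1 or 2). Counts of called genes moved more. With the replicate block they were 632 for TNFα against control, 3315 for both against TNFα and 100 for both against apigenin, and no call of the chemokines changed. The labels state no shared culture or day for a number. Deviations from the group means correlated at 0.018 to 0.464 over 18 same-numbered pairs, 13 of them over 0.1, and 11 of 12 arrays correlated best with their own number. Pairing was taken to need every pair over 0.1, so the shares of genes called beside the results come from the fit without the block, and the data hint at a link that the labels do not give. With only the compared groups in the fit they were 73 for TNFα against control and 21 for both against apigenin. For the interaction they were 5 with median centring and 4 with a variance trend. Without all arrays numbered 3 they were 85, 1505, 1288 and 15 for TNFα against control, apigenin against control, both against TNFα and both against apigenin, and 2 for the interaction. Without 1 array the same 5 counts ranged over 98 to 314, 1534 to 2050, 1191 to 2063, 15 to 31 and 2 to 6, and both against control over 1730 to 2409. The lowest for TNFα against control came without control replicate 1 and the highest without TNFα replicate 2. The cause of these moves was not tested, apart from the fewer samples in such fits. The number of arrays limits precision, and CXCL10 outside the TNFα group lies near the bottom of the scale, where a fold may understate a change.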
